A study of Mus musculus with 8 samples.

Results

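Matrix metalloproteinases are zinc enzymes that cut collagens, elastin and other proteins outside the cell, and tissue inhibitors of metalloproteinases (TIMPs) bind their active site and block it. Most of these enzymes are secreted as inactive proenzymes, and macrophages, monocytes and neutrophils are known sources of several of them in tumors. The genes described here are the collagenases *Mmp8* and *Mmp13*, the gelatinase *Mmp9*, the macrophage elastase *Mmp12*, the membrane-anchored *Mmp14*, the secreted *Mmp19* and the inhibitors *Timp1* and *Timp2*. These 8 genes were chosen with earlier results of the same data known, from 26 *Mmp* and *Timp* symbols among 32285 genes, with their values in these cell classes and tumor lines in view. Differences between those classes and lines are therefore given below as descriptions for these 8 genes, as levels and fitted differences with no test, and tests are given for divisions of the cells that the choice did not use.

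The cells were CD45+ immune cells (a pan-leukocyte surface marker) sorted from mammary tumors of female C57BL/6 mice on day 18 after implantation in the inguinal mammary fat pad. E0771 is a mouse triple-negative breast cancer line, and its parental form, labeled naive, was sampled in 2 mice (replicates 1 and 3). The lines E0771-Res1 and E0771-Res2, sampled in 3 mice each, were both established from E0771 tumors that had relapsed after paclitaxel and anti–PD-1. Each resistant line is a separate line, so a difference between lines cannot be told apart from a difference between the tumors they came from, and the labels name no treatment of the sampled mice. The tumors were digested with collagenase at a warm temperature before sorting, which all groups share. The cells of the mice were tagged with oligonucleotides, pooled and counted by unique molecular identifiers (UMIs, 1 per captured RNA molecule) in 3′ libraries.

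Of 11430 deposited cells, 10605 had 500 to 6000 detected genes and under 10% mitochondrial UMIs, and totals ran from 5036667 to 18894504 UMIs per mouse. Myeloid cells were divided by their UMIs of *C1qa*, a complement gene that marks tumor macrophages. The C1qa-high class held 2315 cells with at least 10 *C1qa* UMIs (100 to 575 per mouse) and the C1qa-low class 4241 cells with at most 1 (287 to 777 per mouse), while 1875 myeloid cells lay between them. There were 436 dendritic cells (18 to 102 per mouse), 781 lymphoid cells (49 to 177 per mouse), 28 cells with a neutrophil profile and 15 with a tumor or stromal profile, and 914 cells stayed without a class. A list of 6 macrophage markers summed to 27423 CPM (UMIs scaled to a total of 1000000) in C1qa-high and 3238 CPM in C1qa-low cells, and a list of 6 monocyte markers to 2222 and 9904 CPM. Median depth was 9330 UMIs in C1qa-high, 6383 in C1qa-low, 9076 in dendritic and 7567 in lymphoid cells. Per mouse, C1qa-low medians were 7528 and 7853 in parental tumors, 6662, 7500 and 7106 for E0771-Res1, then 6158.5, 5198 and 4837 for E0771-Res2. The C1qa-high medians, with the lines listed in the same sequence, were 9902 and 10162.5, then 11165, 11429.5 and 10045, then 8743, 6982 and 7881. E0771-Res2 was thus the shallowest line in both classes. How far this entered the line differences was not tested, beyond a gate set on thinned cells (below). Levels below are CPM of all counted genes, summed over the cells of a class in 1 mouse, so fewer cells that express a gene and less RNA per cell cannot be told apart. Nothing in the labels says that mice of a line came from separate experiments, so p-values measure the spread between these mice.

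*Mmp13*, *Mmp12* and *Mmp8* lie in this order on chromosome 9 and on the plus strand, in a cluster that includes *Mmp27*, and the stretch from the start of *Mmp13* to the end of *Mmp27* covers 309372 bases. In the GRCm38 assembly *Mmp13* spans chr9:7272514-7283331, *Mmp12* chr9:7344381-7369499, *Mmp8* chr9:7558456-7568485 and *Mmp27* chr9:7571396-7581885. *Mmp12* shares 1261 bases with *Mmp1b* on the opposite strand, to which no UMI was assigned, and *Mmp8* ends 2910 bases before *Mmp27*. The other genes lie apart, with *Mmp9* at chr2:164940780-164955850, *Mmp14* at chr14:54431612-54445364, *Mmp19* at chr10:128790910-128800824, *Timp1* at chrX:20870166-20874735 and *Timp2* at chr11:118301069-118355740, the last on the minus strand.

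Among the 5 genes tested, *Mmp12* and *Mmp13* had the largest differences between macrophages ranked by lipid-associated genes (below). *Mmp8* was too low in counts for that test and had 188 UMIs in the upper and 21 in the lower tertiles. The 250 bases before the transcription starts of *Mmp12* and *Mmp13* are shown because both hold the sequence TGANTCA, the letters bound by the AP-1 (Fos and Jun) factors. The sequences are from RefSeq on GRCm38.p6, plus strand, at chr9:7347124-7347373 for *Mmp12* and chr9:7272264-7272513 for *Mmp13*, and the capitals mark the match, 44 and 35 bases before the start.
Mmp12: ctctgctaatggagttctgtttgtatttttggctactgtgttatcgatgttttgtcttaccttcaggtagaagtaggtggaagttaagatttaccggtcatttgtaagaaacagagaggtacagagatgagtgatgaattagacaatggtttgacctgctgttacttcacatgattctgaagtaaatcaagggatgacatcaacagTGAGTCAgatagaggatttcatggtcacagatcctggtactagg
Mmp13: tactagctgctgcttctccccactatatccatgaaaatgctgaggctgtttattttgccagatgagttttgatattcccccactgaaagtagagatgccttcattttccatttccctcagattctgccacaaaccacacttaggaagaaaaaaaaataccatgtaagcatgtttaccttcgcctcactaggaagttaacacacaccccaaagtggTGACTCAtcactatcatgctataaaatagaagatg
The motif is its own reverse complement, so both strands were searched at once, in windows of 250 bases before to 50 after each start. It was found in 2565 of 32851 such windows (7.81%), and in the windows of 2 of the 6 genes described here that had an entry. Another annotated start of *Mmp12*, with the window at chr9:7344147-7344446, held no match. This window covers the start of the *Mmp12* span given above, while the printed *Mmp12* stretch lies inside that span. The windows of *Mmp8*, *Mmp14*, *Timp1* and *Timp2* held no match either. A match describes letters and does not show that a factor was bound.

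Both collagenases were detected in myeloid cells, on opposite sides of the *C1qa* division. *Mmp8*, best known as neutrophil collagenase, ran from 20.0 through a median of 25.5 to 46.6 CPM over the 8 mice in C1qa-low cells and from 6.54 through 14.2 to 20.6 CPM in C1qa-high cells. Its means ± SD were 30.1 ± 10.5 and 14.0 ± 5.11 CPM (n = 8), and the ranges of the classes overlapped only between 20.0 and 20.6 CPM. In dendritic and lymphoid cells *Mmp8* rested on 12 UMIs each. *Mmp13*, which cleaves fibrillar collagen, showed the reverse order, with 48.7, 115 and 198 CPM as lowest, median and highest mouse in C1qa-high cells and 10.3, 25.2 and 74.4 CPM in C1qa-low cells. The lymphoid cells followed with 14.8 ± 12.5 CPM and the dendritic cells with 6.44 ± 3.86 CPM (SD, n = 8), 2 classes whose ranges overlapped.

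*Mmp9*, the gelatinase that cuts denatured collagen and is stored in neutrophil granules, was close to absent from these cells. It had 99 UMIs in all 10605 cells, of which 25 lay in the 28 cells with a neutrophil profile, where 14 cells (50%, exact 95% interval 30.6 to 69.4%, counting error only) carried a UMI. In C1qa-high cells 11 of 2315 cells (0.475%) had a UMI, and 17 of the 24 UMIs of E0771-Res1 mouse 1 came from a single cell. Lymphoid cells had a UMI in 7 of 781 cells (0.896%). The exact 95% intervals, 0.237 to 0.849% in C1qa-high and 0.361 to 1.84% in lymphoid cells, overlapped. The macrophage share was thus not above that of a class in which the gene is not known as a marker. In dendritic cells 0 of 436 had a UMI, which allows a share with a UMI of up to 0.688% by a floor of 3 counts. The exact 95% interval reached 0.843%, and neither limits expression below detection. The gene did not pass the minimum count in any comparison and its level was not compared further.

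*Mmp12*, the elastase named after macrophages, ran from 53.3 through a median of 310 to 496 CPM in C1qa-high cells and from 49.7 through 117 to 252 CPM in C1qa-low cells. The means were 289 ± 156 and 131 ± 66.6 CPM (SD, n = 8), with overlapping ranges. Lymphoid cells had 64.7 ± 82.5 CPM and dendritic cells 31.1 ± 19.9 CPM. The highest lymphoid value, 262 CPM in E0771-Res2 mouse 3, rested on 1 cell that held 123 of the 162 UMIs, while the other 7 mice lay between 14.5 and 74.1 CPM. *Mmp12* was concentrated in few cells, since the top 1% of all kept cells held 46.3% of its UMIs and the highest cell had 319. The same share was 45.3% for *Mmp13* and 58.2% for *Timp1*, against 7.67% for *Mmp14* and 12.9% for *Timp2*.

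*Mmp14*, a membrane-type enzyme that activates pro-Mmp2 together with Timp2, was detected in most C1qa-high cells, with 321, 381 and 465 CPM as lowest, median and highest mouse in C1qa-high cells. C1qa-low cells had 196, 233 and 300 CPM, so the ranges did not overlap. Lymphoid (74.9 ± 31.3 CPM) and dendritic cells (48.4 ± 13.0 CPM) overlapped with each other and lay below every myeloid value. *Mmp19*, which degrades basement membrane proteins, had 23.8, 38.8 and 59.2 CPM in C1qa-low cells and 12.8, 19.5 and 29.5 CPM in C1qa-high cells, with overlapping ranges. Its dendritic mean was 9.11 ± 4.12 CPM and its lymphoid mean 3.13 ± 2.55 CPM, again overlapping.

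The inhibitors differed in where they were found. *Timp2* had its highest level in C1qa-high cells, with 277, 372 and 466 CPM as lowest, median and highest mouse. Lymphoid cells (90.1, 134 and 184 CPM) and C1qa-low cells (80.5, 111 and 197 CPM) overlapped almost in full, and dendritic cells had 41.8 ± 21.0 CPM. Within the lymphoid class 50.9% of 534 T cells and 26.4% of 140 natural killer cells had a *Timp2* UMI, at 153 and 68.8 CPM with the mice pooled and median depths of 7537.5 and 6868 UMIs. *Timp1*, which blocks most secreted metalloproteinases, was highest among these 4 classes in dendritic cells (40.3 ± 48.3 CPM) and in C1qa-low cells (20.6 ± 8.60 CPM), 2 classes whose ranges overlapped, with 8.02 ± 5.05 CPM in C1qa-high and 4.02 ± 6.29 CPM in lymphoid cells. Among dendritic cells 20.0% of the 180 without the *Ccr7*, *Fscn1* and *Ccl22* program of migratory cells had a *Timp1* UMI, against 2.73% of the 256 with it, at median depths of 10242 and 8132 UMIs.

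**Figure D1:**
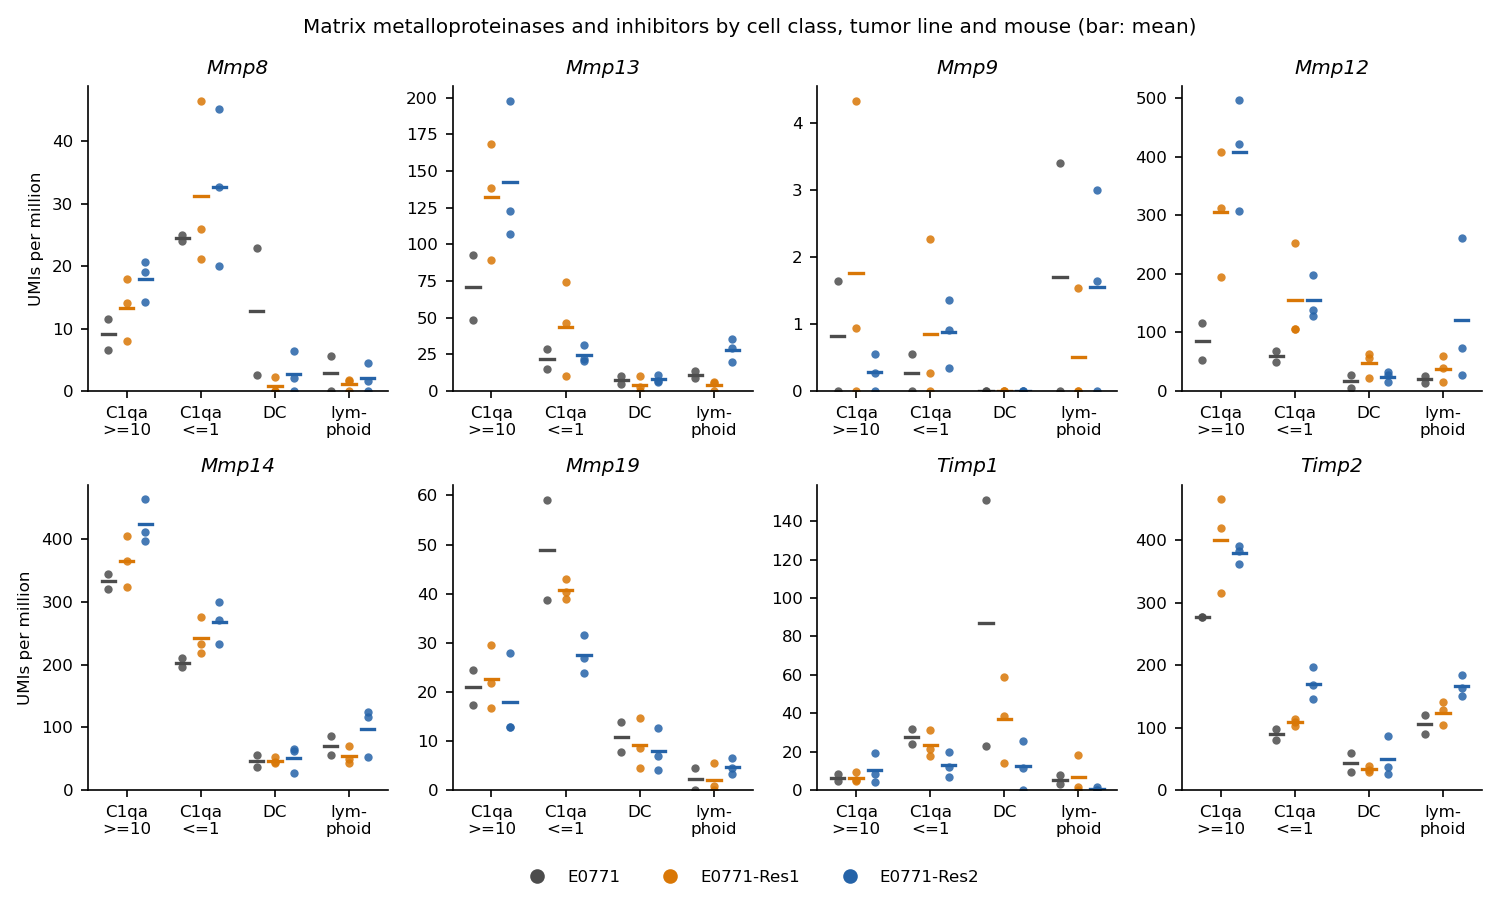
Level of each gene (y axis, CPM) in C1qa-high, C1qa-low, dendritic (DC) and lymphoid cells (x axis). Each point is 1 mouse, colored by tumor line, and the bar is the mean of the line. *Mmp13*, *Mmp12*, *Mmp14* and *Timp2* had their highest means in C1qa-high cells and *Mmp8* and *Mmp19* theirs in C1qa-low cells.

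The share of cells with a UMI gave the same order for most genes. In C1qa-high, C1qa-low, dendritic and lymphoid cells *Mmp14* was detected in 83.9%, 50.6%, 21.3% and 20.2% of cells, and *Timp2* in 76.1%, 33.0%, 21.1% and 45.3%. *Mmp13* was detected in 23.5%, 6.60%, 4.36% and 5.38%, and *Mmp12* in 30.4%, 15.8%, 12.2% and 12.3%. After each cell was thinned to 2500 UMIs the *Mmp12* shares were 18.2%, 9.47%, 4.91% and 5.26%, in the order found before thinning. The lymphoid cells also carried 3026 CPM of the 6 macrophage markers. The part of free RNA or of doublets in their *Mmp12*, *Mmp13*, *Mmp14* and *Timp2*, in T cells and between lines too, was not tested. The dendritic shares of *Mmp12*, *Mmp13* and *Mmp14* lay near the lymphoid ones before thinning. After thinning they were 0.70% against 1.89% for *Mmp13* and 6.07% against 9.85% for *Mmp14*. Since no background share was measured, these dendritic shares are not read as expression. The same holds for *Mmp8* and *Mmp19* in lymphoid cells, at 1.02% and 1.92%.

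Fitted with mouse as a block, 7 of the 8 genes (all but *Mmp9*) had enough counts for a difference between C1qa-high and C1qa-low cells, which is given with no test because the choice of the genes used it. In log2 units ± SE, *Mmp13* was 1.92 ± 0.21 higher in C1qa-high cells, *Timp2* 1.39 ± 0.09, *Mmp12* 0.98 ± 0.12 and *Mmp14* 0.52 ± 0.05. *Timp1* was −1.42 ± 0.27, *Mmp8* −1.23 ± 0.14 and *Mmp19* −1.04 ± 0.11. When *C1qa* was instead gated after thinning each cell to 2500 UMIs, the difference of *Mmp12* shrank from 0.98 to 0.27. All 7 genes kept their direction.

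The level along *C1qa* showed that these differences were not all steps at the gate. *Timp2* had a mean of 127 CPM over the mice in myeloid cells without *C1qa*, 246 CPM at 5 to 9 UMIs, 289 CPM at 10 to 19 and 510 CPM at 80 or more. *Mmp12* had 111 CPM without *C1qa*, 385 CPM at 5 to 9 UMIs just outside the gate, 379 CPM at 10 to 19 just inside it, and 199 CPM at 40 to 79. *Mmp19* ran from 38.7 CPM to 13.7 CPM and *Mmp8* from 27.7 CPM to 9.19 CPM between the ends of the range. *Mmp13* ran from 31.3 CPM to 182 CPM, and *Mmp14* from 237 CPM to 409 CPM at 20 to 39 UMIs and 351 CPM at 80 or more. Just outside the gate were 474 cells (19 in the mouse with fewest) and just inside it 551 (22 in the mouse with fewest). Single mice reached 1617 CPM of *Mmp12* and 159 CPM of *Mmp8* in the former. With the mice pooled, *Mmp12* had 328 CPM at 5 to 9 UMIs, 472 CPM at 10 to 19 and 473 CPM at 20 to 39. Median depth was 5121 UMIs at 5 to 9, 6206 at 10 to 19 and 14509 at 80 or more.

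**Figure D2:**
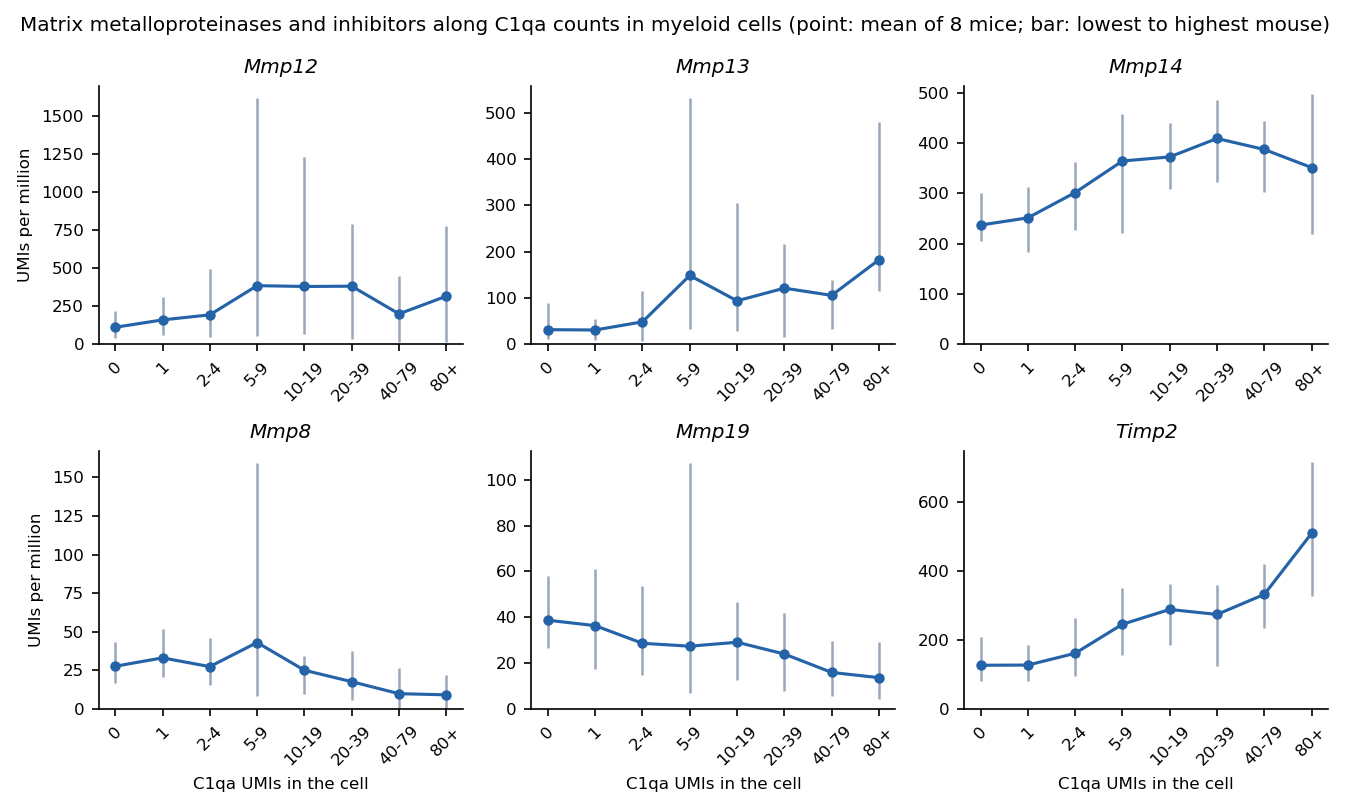
Level of 6 genes (y axis, CPM) in myeloid cells grouped by their *C1qa* UMIs (x axis). Points are means over the 8 mice and bars run from the lowest to the highest mouse. *Timp2* was highest at 80 or more *C1qa* UMIs. *Mmp12* had like means from 5 to 39 UMIs, with 1 mouse at 1617 CPM in the group of 5 to 9.

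Between tumor lines, *Mmp12* in C1qa-high cells had the widest gap. The parental mice 1 and 3 had 116 and 53.3 CPM, the 3 E0771-Res1 mice 408, 195 and 312 CPM and the 3 E0771-Res2 mice 422, 496 and 308 CPM. All resistant mice lay above both parental mice, and the resistant lines overlapped with each other. The fitted fold against parental was 3.44 for E0771-Res1 (log2 1.78 ± 0.31) and 4.48 for E0771-Res2 (log2 2.16 ± 0.30), and 0.38 ± 0.23 in log2 units between the resistant lines. Both the share of cells and the UMIs per positive cell were higher. In thinned C1qa-high cells, a mean of 11.2% of parental, 16.7% of E0771-Res1 and 21.4% of E0771-Res2 cells had a *Mmp12* UMI. Before thinning, cells with a UMI held 5.20 and 2.30 UMIs on average in the parental mice, 12.7, 5.75 and 9.14 in the E0771-Res1 mice, then 10.2, 9.16 and 6.69 in the E0771-Res2 mice. Of these UMIs 1 cell held 56 of 213 in parental mouse 1, 13 of 46 in parental mouse 3 and 67 of 207 in E0771-Res1 mouse 2. How far such single cells entered these values was not tested. With 1 mouse left out the log2 difference ran from 1.42 to 2.51 for E0771-Res1 and from 1.80 to 2.90 for E0771-Res2, and with the gate set after thinning it was 1.03 for E0771-Res1.

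In C1qa-low cells *Mmp12* had 69.0 and 49.7 CPM in the parental mice, 252, 105 and 106 CPM in E0771-Res1 and 198, 127 and 139 CPM in E0771-Res2. Here too no resistant mouse overlapped with a parental one. The log2 difference was 1.38 ± 0.30 for E0771-Res1 and 1.34 ± 0.30 for E0771-Res2. Without E0771-Res1 mouse 1, the highest mouse, the former was 0.82, and with the gate set after thinning 1.93. In the dendritic cells the mice ranged from 5.15 to 63.4 CPM with overlap between the lines.

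*Timp2* was lower in the parental tumors in both myeloid classes. In C1qa-high cells both parental mice had 277 CPM, E0771-Res1 420, 466 and 315 CPM and E0771-Res2 390, 362 and 383 CPM. Every resistant mouse lay above the parental ones, by 0.51 ± 0.13 and 0.44 ± 0.13 in log2 units. In C1qa-low cells the parental mice had 80.5 and 98.2 CPM, E0771-Res1 113, 109 and 103 CPM and E0771-Res2 197, 145 and 168 CPM, so the 3 lines did not overlap. E0771-Res2 was 0.93 ± 0.13 above parental and 0.63 ± 0.11 above E0771-Res1, and the former was 0.78 without parental mouse 1. In lymphoid cells the order was alike, with 120 and 90.1 CPM in parental, 127, 141 and 103 CPM in E0771-Res1 and 163, 151 and 184 CPM in E0771-Res2, where E0771-Res2 lay above the rest.

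*Mmp19* and *Timp1* ran the other way in C1qa-low cells. *Mmp19* had 59.2 and 38.7 CPM in parental, 38.9, 40.3 and 43.0 CPM in E0771-Res1 and 23.8, 31.5 and 27.0 CPM in E0771-Res2, whose mice lay below all others. The log2 difference of E0771-Res2 was −0.90 ± 0.18 against parental and −0.59 ± 0.16 against E0771-Res1. Without parental mouse 1, the highest mouse, the first was −0.52. In C1qa-high cells *Mmp19* overlapped between all lines. *Timp1* had 24.0 and 31.6 CPM in parental C1qa-low cells, 17.7, 21.6 and 31.4 CPM in E0771-Res1 and 19.7, 7.00 and 12.1 CPM in E0771-Res2. The log2 difference of E0771-Res2 from parental was −1.06 ± 0.31, and −1.50 without its mouse 1, the highest of that line. With 1 mouse left out it ran from −1.50 to −0.79. Against E0771-Res1 the difference was −0.81 ± 0.28, and −1.27 without E0771-Res2 mouse 1, in a range of −1.27 to −0.54. A single cell held 21 of the 58 UMIs of parental mouse 3, 24 of the 73 of E0771-Res1 mouse 3 and 19 of the 72 of E0771-Res2 mouse 1.

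For the collagenases and *Mmp14*, E0771-Res1 overlapped with both other lines in C1qa-high cells. *Mmp13* in C1qa-high cells had 92.7 and 48.7 CPM in parental, 168, 89.6 and 139 CPM in E0771-Res1 and 122, 198 and 107 CPM in E0771-Res2, so E0771-Res2 lay above parental while E0771-Res1 overlapped with both. The log2 differences from parental were 0.86 ± 0.30 and 0.89 ± 0.29. In C1qa-low cells *Mmp13* had 28.6 and 14.7 CPM in parental, 46.6, 74.4 and 10.3 CPM in E0771-Res1 and 31.1, 20.7 and 21.8 CPM in E0771-Res2. All lines overlapped there. In E0771-Res1 mouse 2, the highest, 66 of the 131 UMIs came from 1 cell. The log2 difference of E0771-Res1 from parental was 0.90 ± 0.46 with all mice, 0.41 without that mouse and 1.34 without mouse 3, the lowest, and that of E0771-Res2 was 0.10 ± 0.48. *Mmp8* in C1qa-high cells had 6.54 and 11.6 CPM in parental, 7.95, 17.9 and 14.1 CPM in E0771-Res1 and 19.01, 20.6 and 14.3 CPM in E0771-Res2, with log2 differences of 0.43 ± 0.43 and 1.09 ± 0.40. E0771-Res2 lay above parental, and E0771-Res1 overlapped with both, though the parental mice held only 12 and 10 UMIs. In C1qa-low cells *Mmp8* had 24.0 to 25.0 CPM in parental, 21.1 to 46.6 CPM in E0771-Res1 and 20.0 to 45.2 CPM in E0771-Res2. The lines overlapped, with log2 differences of 0.28 ± 0.32 and 0.38 ± 0.31 from parental. *Mmp14* in C1qa-high cells had 321 and 345 CPM in parental, 406, 324 and 366 CPM in E0771-Res1 and 397, 412 and 465 CPM in E0771-Res2. E0771-Res2 lay above parental there by 0.34 ± 0.12. In C1qa-low cells all 6 resistant mice had more *Mmp14* than the parental mice (219 to 300 against 196 and 210 CPM), with log2 differences of 0.27 ± 0.12 and 0.39 ± 0.12.

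**Figure D3:**
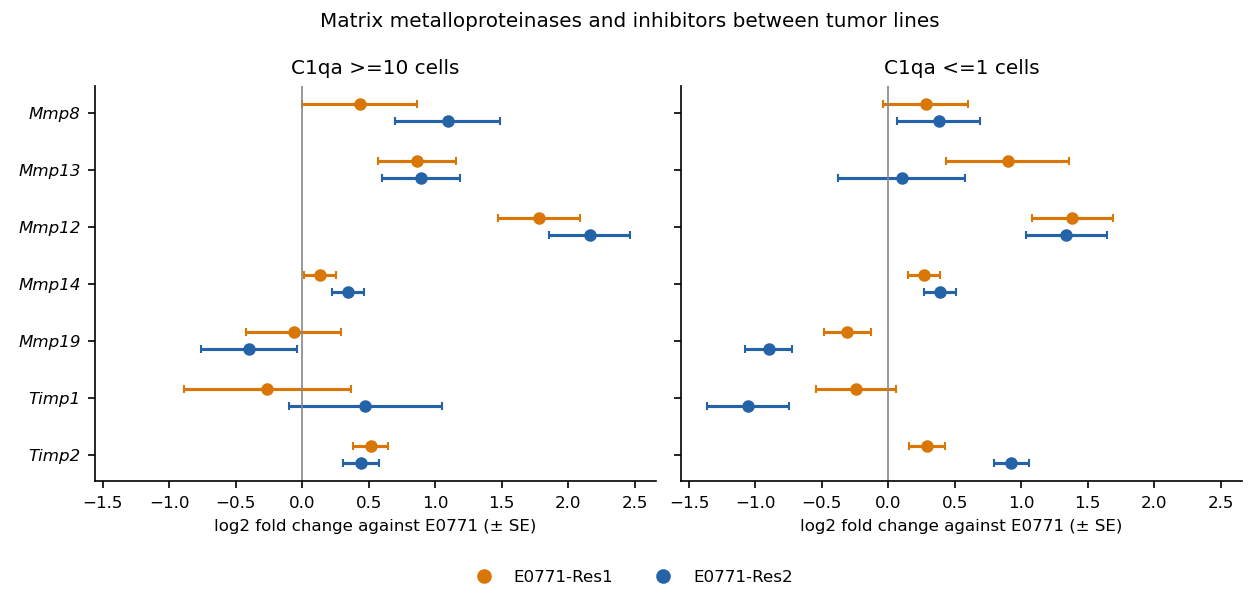
Log2 fold change against parental E0771 (x axis, ± SE) of 7 genes in C1qa-high (left) and C1qa-low cells (right). No test is shown, since the choice of the genes used these differences. *Mmp12* lay at 1.78 and 2.16 in C1qa-high cells, and *Mmp19* at −0.90 for E0771-Res2 in C1qa-low cells.

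How far a line difference in C1qa-high cells exceeded that in C1qa-low cells was fitted as an interaction of class and line, again with no test for these genes, and over all 9863 genes it passed for 0.0101% (E0771-Res1) and 0.335% (E0771-Res2). For E0771-Res2 it was 1.41 ± 0.65 log2 units for *Timp1* (0.57 to 2.26 with 1 mouse left out) and 0.82 ± 0.28 for *Mmp12*. *Timp1* rested on 142 UMIs in C1qa-high cells, of which parental mouse 3 had 4. In E0771-Res2 mouse 2, 21 of its 35 UMIs there came from 1 cell. *Mmp13* had 0.75 ± 0.56, *Mmp8* 0.74 ± 0.40 and *Mmp19* 0.53 ± 0.30. The other way went *Timp2* at −0.52 ± 0.15, and *Mmp14* was at −0.07 ± 0.12. Neutrophil markers in C1qa-high cells summed to 67.6 to 92.7 CPM in parental, 62.3 to 73.0 CPM in E0771-Res1 and 78.7 to 97.1 CPM in E0771-Res2 mice, and *Ly6g*, *Ngp* and *Elane* were at 0 in all of them. With the mice pooled, *Csf3r* alone had 70.0 of the 75.4 CPM of this list, and it had 99.0 CPM in C1qa-low cells. *S100a8* and *S100a9* had 2.41 and 1.94 CPM in C1qa-high cells. Tumor or stromal markers summed to 11.4 to 22.0, 8.03 to 13.2 and 11.8 to 17.3 CPM. The dendritic list summed to 22.9 to 26.7, 17.4 to 19.3 and 19.6 to 25.1 CPM, and the lymphoid list to 91.6 to 110, 84.9 to 99.1 and 109 to 120 CPM, and the part of any of these cells in the line differences was not tested.

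To relate the enzymes to macrophage states by a division that their choice did not use, the C1qa-high cells of each mouse were ranked by 6 genes of lipid-associated macrophages (*Trem2*, *Gpnmb*, *Fabp5*, *Lpl*, *Cd9* and *Ctsd*). The upper and lower tertiles held 769 cells each, at least 33 per mouse. *Mmp12* had 275 and 119 CPM in the upper tertile of the parental mice, 792, 424 and 561 CPM in E0771-Res1 and 950, 1007 and 586 CPM in E0771-Res2. The lower tertiles had 15.9 and 29.4 CPM, then 111, 99.6 and 135 CPM, then 110, 57.7 and 59.6 CPM. *Mmp12* was higher in the upper tertile in 8 of 8 mice, by 8.09-fold (log2 3.02 ± 0.17, edgeR quasi-likelihood test with mouse as a block and Benjamini-Hochberg adjustment, adjusted p = 4.27e-11). The parental mice lay below every resistant mouse within the upper and within the lower tertile.

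*Mmp13*, *Mmp19* and *Timp2* rose with it. *Mmp13* ran from 43.6 to 285 CPM in the upper and from 6.54 to 135 CPM in the lower tertile, higher in 8 of 8 mice by 1.74 ± 0.15 log2 units (edgeR, adjusted p = 3.46e-08). *Mmp19* ran from 16.2 to 49.0 and from 6.54 to 22.8 CPM, higher in 8 of 8 mice by 1.36 ± 0.23 (edgeR, adjusted p = 0.000207). It had few counts, 174 UMIs in the upper and 61 in the lower tertiles, and passed the minimum count mainly through the upper ones. Its place among the tested genes thus leaned on the tertile where it was high, and its p-value is not read as support. The inhibitor *Timp2* ran from 427 to 559 CPM against 129 to 319 CPM without overlap, higher in 8 of 8 mice by 1.16 ± 0.09 (adjusted p = 2.77e-09). *Mmp14* was higher in 6 of 8 mice by 0.21 ± 0.09, which did not pass (adjusted p = 0.102). It passed without E0771-Res1 mouse 2 (0.26) or 3 (0.27) and with an upper and a lower part split at the median (0.22). Of the 5 genes tested 4 rose, a count that includes *Mmp19*, beside 17.7% of 6090 genes that passed in either direction. The median of the 5 was 1.36, which is the value of *Mmp19* itself, and that of all genes −0.00. *Mmp8* was below the minimum count for the test, with 188 UMIs in the upper and 21 in the lower tertiles, and had 15.2 to 44.1 CPM against 0 to 6.79 CPM. *Timp1* rested on 69 and 33 UMIs and *Mmp9* on 20 and 5. Median depth was 9764 UMIs in the upper and 9096 in the lower tertile, median *C1qa* 37 and 35 UMIs, and 351 of the cells lay within 10% of a tertile limit.

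Ranking by 8 hypoxia-response genes (*Slc2a1*, *Vegfa*, *Pgk1*, *Ldha*, *Bnip3*, *Ero1l*, *Egln3* and *Ndrg1*) separated *Mmp12* and *Mmp13* from *Timp2*. *Mmp12* ran from 68.8 through a median of 527 to 1068 CPM in the upper and from 29.7 through 88.8 to 242 CPM in the lower tertile, higher in 8 of 8 mice by 2.40 ± 0.13 log2 units (edgeR, adjusted p = 2.31e-13). *Mmp13* was higher in 7 of 8 mice by 0.98 ± 0.16 (adjusted p = 6.86e-05). *Mmp19* was higher in 6 of 8 mice by 0.67 ± 0.23 and did not pass (adjusted p = 0.055), though it passed without parental mouse 3 (0.70) and without the filter on low counts (0.69). *Timp2* differed by −0.04 ± 0.11 (adjusted p = 0.897) and *Mmp14* by −0.00 ± 0.08 (adjusted p = 0.996). So 2 of 5 genes rose, beside 12% of 6106 genes that passed in either direction (383 higher and 347 lower). *Mmp8*, not tested, had 166 and 36 UMIs and was higher in 7 of 8 mice. Median depth was 9956 UMIs in the upper and 8273 in the lower tertile. The upper tertiles by hypoxia and by lipid-associated genes shared 320 of 769 cells (41.6%), so these divisions were not independent.

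Ranking by the MHC class II genes (*H2-Aa*, *H2-Ab1*, *H2-Eb1* and *Cd74*), which present antigen to CD4+ T cells, moved the inhibitor alone among the 5 genes tested. *Timp2* ran from 179 to 369 CPM in the upper and from 330 to 686 CPM in the lower tertile and was lower in the upper one in 8 of 8 mice. The difference was −0.56 ± 0.15 log2 units (edgeR, adjusted p = 0.0144), and it no longer passed without E0771-Res1 mouse 1 (−0.50, adjusted p = 0.0582). *Mmp12* differed by 0.40 ± 0.19, *Mmp13* by −0.28 ± 0.20, *Mmp19* by 0.14 ± 0.21 and *Mmp14* by 0.07 ± 0.07, none of which passed, beside 9.95% of 6162 genes that did. Without the filter on low counts *Mmp12* passed (0.42). *Mmp8*, not tested, was lower in the upper tertile in 8 of 8 mice, at 1.64 to 16.4 against 11.4 to 32.8 CPM. The MHC class II and lipid-associated upper tertiles shared 187 cells (24.3%).

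**Figure D4:**
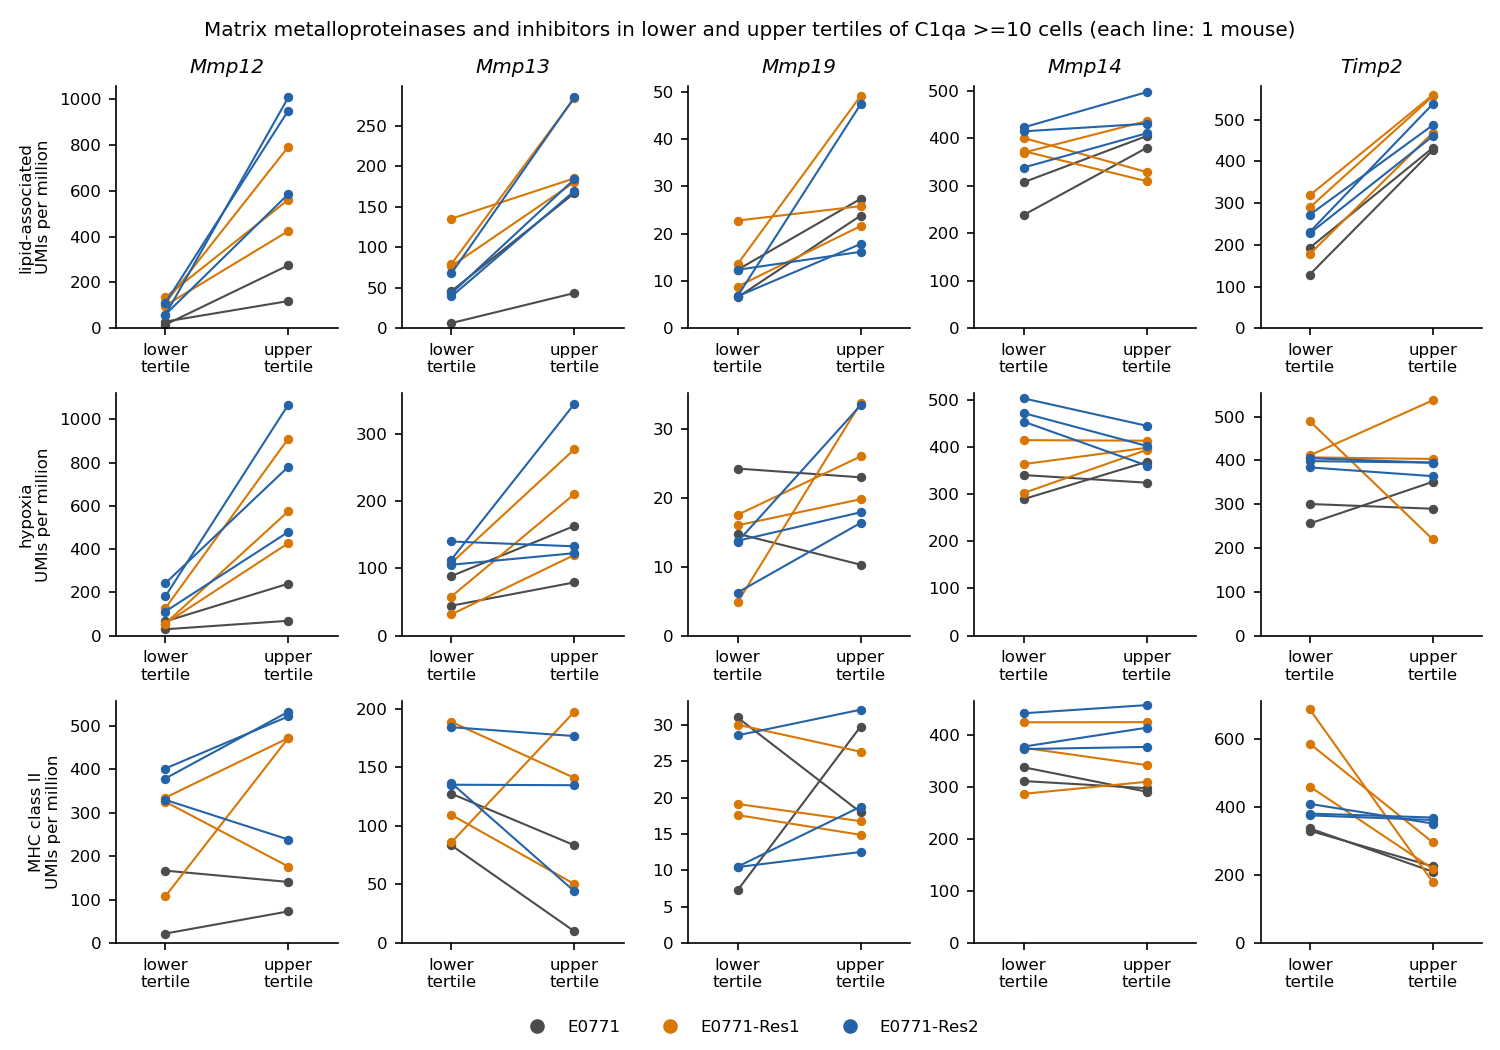
Level of 5 genes (y axis, CPM) in the lower and upper tertile of C1qa-high cells of each mouse, ranked by lipid-associated genes (top), hypoxia genes (middle) or MHC class II genes (bottom). Each line is 1 mouse, colored by tumor line. *Mmp12* was higher in the upper tertile in 8 of 8 mice for the lipid-associated and hypoxia ranks, and *Timp2* lower in 8 of 8 for MHC class II.

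Detection of *Mmp12* and *Mmp13* in the same cells was counted after thinning. In C1qa-high cells *Mmp13* was found in a mean of 27.2% ± 12.0 of cells with *Mmp12* and 8.74% ± 3.11 of cells without it (SD, n = 8 mice), and was more frequent beside *Mmp12* in 7 of 8 mice. *Timp2* was found in 48.8% ± 8.22 and 43.0% ± 6.14, more frequent in 6 of 8, and *Mmp14* in 50.4% ± 6.99 and 49.8% ± 4.45.

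Over the 39 sums of a class in a mouse with at least 20 cells, the genes whose log2 level followed each member most closely are given as a description, since these sums share mice, classes and depth. For *Mmp12* they were *Lpl* (r = 0.87), *Mtss1* (0.86) and *Blvrb* (0.84), and *Lpl* is in the lipid-associated list. For *Mmp13* they were *Ccl7* (0.86), *P2ry6* and *8030453O22Rik* (0.85 each). For *Mmp14* they were *Acp2*, *Plin2* and *Myof* (0.97 each), and for *Timp2* the lysosomal protease gene *Ctsd* (0.94), which is also in the lipid-associated list, with *Snx5* (0.91) and *Lgals3bp* (0.90). For *Mmp8* they were *Ier3* (0.92), *Ccl6* and *Igsf6* (0.89 each), and for *Mmp19* *Mefv* (0.93), *Bst1* (0.92) and *Il6ra* (0.91). For *Timp1* the highest was *Ifi205* (0.76), and for *Mmp9* no gene was above 0.58.

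Of the 17 other metalloproteinases listed, *Mmp25*, a membrane-anchored enzyme of leukocytes, and *Mmp27* had enough counts for a test. Of all 9062 genes tested in C1qa-high cells 0.894% passed for E0771-Res1 and 2.39% for E0771-Res2 against parental, and 3.47% between the resistant lines, and of 9495 genes in C1qa-low cells 0.0421%, 5.68% and 5.06%. *Mmp27* in C1qa-high cells had 5.45 and 5.80 CPM in parental, 7.22, 12.3 and 5.36 CPM in E0771-Res1 and 32.9, 32.9 and 23.2 CPM in E0771-Res2. E0771-Res2 lay above all other mice, by 2.39 ± 0.35 log2 units against parental (edgeR quasi-likelihood test, adjusted p = 0.00195) and 1.95 ± 0.24 against E0771-Res1 (adjusted p = 0.000574). The first was 2.31 and no longer passed without parental mouse 1. In C1qa-low cells *Mmp27* was 1.46 ± 0.39 higher in E0771-Res2 than in E0771-Res1 (adjusted p = 0.0348), at 5.46 to 9.10 against 0.861 to 3.97 CPM. That call was lost without E0771-Res1 mouse 2 (1.49) or 3 (1.10) or without E0771-Res2 mouse 1 (1.35) or 2 (1.35), without likely doublets (1.49), with a gate of 5 and 0 (1.52) and with the gate after thinning (1.10). *Mmp25* in C1qa-low cells had 4.91, 5.60 and 5.15 CPM in E0771-Res2, below the 8.52 to 15.1 CPM of E0771-Res1, by −1.15 ± 0.27 (adjusted p = 0.0171), a call lost without E0771-Res1 mouse 3 (−0.92) or E0771-Res2 mouse 1 (−1.10) or 3 (−1.14). Dendritic cells held 642 of the 1245 UMIs of *Mmp25*, at 190 CPM with the mice pooled. Pooled levels were 5.87 CPM in C1qa-high, 8.56 CPM in C1qa-low and 12.7 CPM in lymphoid cells. How far dendritic RNA entered the C1qa-low values was not tested. *Mmp2*, a gelatinase that Mmp14 activates, had 23 UMIs and *Mmp28* 41, and each of the rest had at most 16. Of the other inhibitors, *Reck*, which anchors to the membrane, had 40 UMIs and *Timp3* 14, while *Timp4* and *A2m* had 0, so none of these was tested in any comparison.

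Of 8 matrix proteins tested, *Tgfbi* was lower in E0771-Res2 C1qa-high cells against parental and against E0771-Res1, beside 2.39% and 3.47% of all genes past the threshold, and *Tgfbi*, *Thbs1* and *Vcan* were lower in its C1qa-low cells, beside 5.68% and 5.06%. *Tgfbi*, a secreted adhesion protein, had 1645.96 and 1809.59 CPM in parental C1qa-high cells and 1141.7 to 1269.98 CPM in E0771-Res2, −0.53 ± 0.12 log2 units (edgeR, adjusted p = 0.0372) and −0.47 ± 0.11 against E0771-Res1 (adjusted p = 0.0295). The call against parental was lost without parental mouse 1 (−0.62) or 3 (−0.45), and that against E0771-Res1 without E0771-Res1 mouse 3 (−0.33). Both were lost on leaving out any 1 of the E0771-Res2 mice (−0.57 to −0.44) and with the gate after thinning (−0.47 and −0.38). In C1qa-low cells *Tgfbi* fell by 0.65 against parental (adjusted p = 0.000699) and by 0.61 against E0771-Res1 (adjusted p = 0.00047), with no call lost. *Thbs1*, which binds metalloproteinases and activates TGF-β, fell by 1.19 (adjusted p = 0.00333) and 0.75 (adjusted p = 0.0318) in the same cells. *Vcan*, a proteoglycan that is also on the monocyte list, fell by 1.01 (adjusted p = 0.00675) and 0.85 (adjusted p = 0.0121). Against parental, *Thbs1* (−0.98) and *Vcan* (−0.92) were not past the threshold without parental mouse 1. Against E0771-Res1, *Thbs1* was not past it without E0771-Res1 mouse 2 (−0.46) or 3 (−0.77) or E0771-Res2 mouse 1 (−0.65) or 3 (−0.67), and *Vcan* without E0771-Res1 mouse 2 (−0.68) or E0771-Res2 mouse 3 (−0.84). In DESeq2 neither call of *Vcan* passed, nor that of *Thbs1* against E0771-Res1 (−0.77), which also did not pass with a gate of 5 and 0 (−0.66). *Fn1* differed by 0.91 ± 0.52 and 0.47 ± 0.53 from parental in C1qa-high and by −0.01 ± 0.26 and −0.63 ± 0.26 in C1qa-low cells, for E0771-Res1 and E0771-Res2, and *Spp1* by −0.18 ± 0.35 and −0.05 ± 0.35, then 1.02 ± 0.32 and 0.67 ± 0.31, none past the threshold in edgeR with all mice. Between the resistant lines *Fn1* differed by −0.44 and −0.62 and *Spp1* by 0.13 and −0.35. *Fn1* in C1qa-low E0771-Res2 cells passed without E0771-Res2 mouse 2 (−1.13 against parental, −1.11 against E0771-Res1).

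Of 4 and 6 genes of plasminogen and proprotein activation tested in C1qa-high and C1qa-low cells, *Plaur*, the urokinase receptor that focuses plasmin at the cell surface, fell in E0771-Res2 C1qa-low cells, 1 of the 6 beside 5.68% and 5.06% of all genes. It fell by 0.55 against parental (edgeR, adjusted p = 0.0117) and 0.52 against E0771-Res1 (adjusted p = 0.00971). Without parental mouse 1 (−0.49) or 3 (−0.60) or E0771-Res2 mouse 3 (−0.50) the first did not pass, and without E0771-Res2 mouse 3 (−0.47) the second did not, nor did either with a gate of 5 and 0 (−0.47 and −0.43). In C1qa-high cells its values were −0.27, −0.57 and −0.30 (E0771-Res1 and E0771-Res2 against parental, then E0771-Res2 against E0771-Res1), none past the threshold with all mice, the second past it without E0771-Res1 mouse 3 (−0.57) or E0771-Res2 mouse 2 (−0.73) or with a gate of 5 and 0 (−0.56). *Plau*, urokinase itself, differed by 0.56, 0.25 and −0.32 in C1qa-high and 0.27, 0.18 and −0.10 in C1qa-low cells, none past it. Among 9 AP-1 genes in C1qa-low cells of E0771-Res2, 3 were higher and 1 lower than in parental, and 1 higher and 1 lower than in E0771-Res1, beside 5.68% and 5.06% of all genes. *Jun* rose by 1.10 ± 0.20 (adjusted p = 0.00348) and 0.75 ± 0.17 (adjusted p = 0.0161), *Jund* by 0.49 (adjusted p = 0.0478) and *Atf3* by 0.47 (adjusted p = 0.0247). Without parental mouse 1 all 3 were no longer past the threshold against parental (1.12, 0.48 and 0.51). Neither were *Jund* and *Atf3* without parental mouse 3 (0.51 and 0.43) or E0771-Res2 mouse 3 (0.39 and 0.49), *Jund* without E0771-Res2 mouse 2 (0.44) or *Atf3* without E0771-Res2 mouse 1 (0.48), nor either with a gate of 5 and 0 (0.52 and 0.39), nor *Jund* with the gate after thinning (0.41). *Jun* against E0771-Res1 was lost without E0771-Res1 mouse 2 (0.67) or 3 (0.66) or E0771-Res2 mouse 2 (0.57) or 3 (0.67), and in DESeq2 (0.74).

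Of the 4 and 5 surface partners of Mmp9 and Mmp14 tested in C1qa-high and C1qa-low cells, the integrin gene *Itgb2* fell by 0.38 in E0771-Res2 C1qa-high cells against parental (edgeR, adjusted p = 0.0479), a call lost on leaving out any of the 5 mice compared (−0.41 to −0.36) and with the gate after thinning (−0.42). *Itgav* rose by 0.47 in E0771-Res2 C1qa-low cells (adjusted p = 0.0486), a call lost without parental mouse 1 (0.48) or 3 (0.47) or E0771-Res2 mouse 1 (0.40) or 3 (0.44), in DESeq2 (0.47), with the excluded genes kept (0.47) and with a gate of 5 and 0 (0.59). No ADAM protease of 5 to 6 tested passed between lines. For E0771-Res1 against parental none of 31 listed genes tested passed in C1qa-high (edgeR, 5 at an unadjusted p under 0.05, 1 in DESeq2) and none of 36 in C1qa-low cells (4 and 0).

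**Figure D5:**
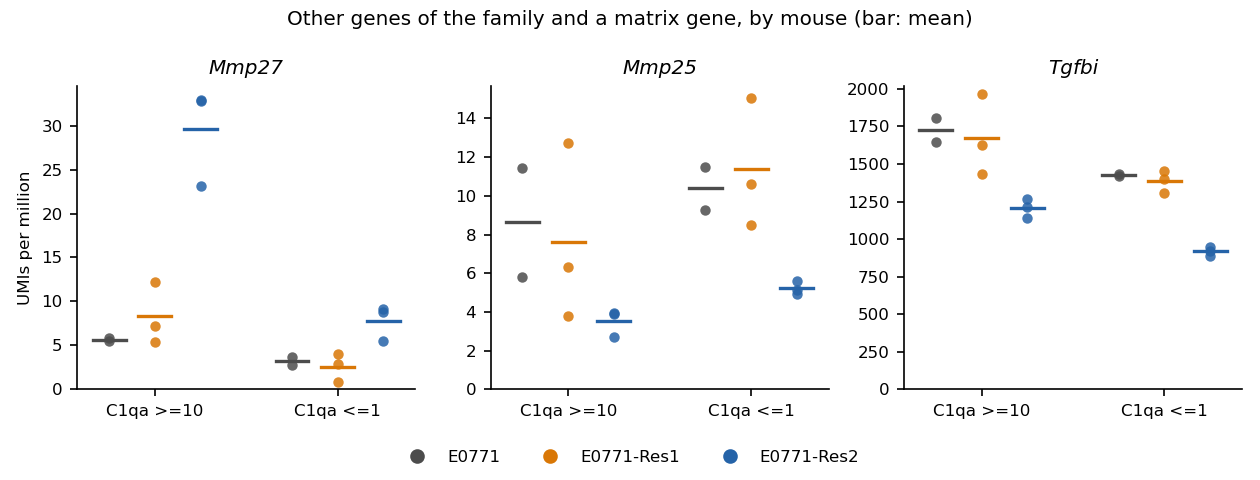
Level of *Mmp27*, *Mmp25* and *Tgfbi* (y axis, CPM) in C1qa-high and C1qa-low cells (x axis) of each mouse, colored by tumor line, with the mean of the line as a bar. The E0771-Res2 mice had 23.2 to 32.9 CPM of *Mmp27* in C1qa-high cells, above the 5.36 to 12.3 CPM of the other mice.

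The same lists were tested between C1qa-high and C1qa-low cells, where 24 of 32 genes passed, beside 56.2% of all 8955 genes. In C1qa-high cells *Mmp27* was higher by 1.57 ± 0.18 log2 units (edgeR, adjusted p = 2.83e-07), *Plau* by 0.64, *Ecm1* by 0.62 and *Adam8* by 0.28, and *Adam8* no longer passed without E0771-Res2 mouse 1 (0.25), 2 (0.19) or 3 (0.22), in DESeq2 (0.26), with the gate after thinning (0.14) or without mouse as a block (0.27). *Vcan* fell by 3.26, *Serpinb2*, an inhibitor of urokinase, fell by 2.88, *Fn1* fell by 2.35 and *Thbs1* fell by 2.28. By list, 2 matrix proteins were higher and 5 lower of 7, no AP-1 gene was higher and 6 were lower of 9, 2 activation genes were higher and 3 lower of 5, and 1 surface partner was higher and 2 lower of 4. Of 5 ADAM proteases 1 was higher, and of the other metalloproteinases *Mmp25* was lower by −0.63 ± 0.17 (adjusted p = 0.00326).

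In the lipid-associated upper tertile 3 of 7 matrix proteins rose and 1 fell, and 1 of 4 surface partners rose, beside 17.7% of all genes past the threshold in either direction. *Spp1* (osteopontin) rose by 1.80 ± 0.19 log2 units (edgeR, adjusted p = 8.36e-07), *Thbs1* by 1.25 ± 0.17 (adjusted p = 2e-05), *Adam8*, a sheddase of leukocytes, by 1.16 ± 0.08 (adjusted p = 6.94e-10) and *Lrp1*, a receptor that takes up metalloproteinases and their complexes with TIMPs, by 0.88 ± 0.10 (adjusted p = 2.19e-06). *Batf* fell by 0.59, *Tgfbi* by 0.44 and *Fosb* by 0.28. Of the other lists, 2 of 4 activation genes rose, 1 of 5 ADAM proteases rose, and none of 8 AP-1 genes rose while 2 fell. In the hypoxia upper tertile *Thbs1* rose by 1.55 ± 0.18 (edgeR, adjusted p = 4.44e-07), *Fn1* by 1.36 ± 0.28, *Adam8* by 1.30 ± 0.13 and *Spp1* by 1.04 ± 0.25. By list, 4 of 7 matrix proteins, 2 of 4 activation genes, 3 of 4 surface partners and 1 of 5 ADAM proteases rose. Beside them, 12% of all genes passed the threshold in either direction. In DESeq2 *Fn1* and *Spp1* did not pass there, nor *Fn1* with cells split at the median (0.72). Of 8 AP-1 genes 1 rose and 1 fell there, the latter *Jun* (−0.28), a call lost without E0771-Res1 mouse 1 (−0.28), 2 (−0.25) or 3 (−0.25) or E0771-Res2 mouse 2 (−0.23).

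In the MHC class II upper tertile 6 of 8 AP-1 genes rose, beside 9.95% of all genes past the threshold in either direction, led by *Junb* at 0.53 ± 0.07 (edgeR, adjusted p = 2.54e-05). *Plaur* rose by 0.71 ± 0.12, *Furin*, which activates pro-Mmp14, by 0.50 ± 0.10 and *Tgfbi* by 0.48 ± 0.06. *Itgav* fell by 0.64, *Adam8* by 0.51 and *Lrp1* by 0.41. By list, 1 of 7 matrix proteins and 2 of 4 activation genes rose, 2 of 4 surface partners fell and 1 of 5 ADAM proteases fell. Neither *Mmp25* nor *Mmp27* had the counts for a test between tertiles.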

How the data were processed

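Raw UMI counts per gene and cell, 1 matrix per mouse, were deposited by the authors without normalization. Per the file headers they were made with Cell Ranger 6.1.2, and the submitters' processing notes name Seurat and the build mm10. The 9 tag features were unused. Of the symbols 38 occurred in more than 1 row (78 rows), none of them a gene described here.

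Cells with 500 to 6000 genes and under 10% mitochondrial UMIs were kept, and 8652 genes (mitochondrial, ribosomal protein and Gm-numbered) did not enter totals or tests. Cells were classed in turn from summed marker UMIs (at least 20 neutrophil, or 5 tumor or stromal, lymphoid, dendritic or myeloid UMIs), thresholds set after the files had been seen. Myeloid cells were divided by *C1qa* (at least 10, at most 1). Doublets were kept. Leaving out the 5% of cells with the highest Scrublet score in each mouse (571 kept cells) was an alternative. No barcode was shared between mice (0).

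Counts summed per mouse and class were tested in edgeR 4.0.16 (limma 3.58.1, R 4.3.3) with TMM normalization, filterByExpr and the quasi-likelihood test, 1 fit over the 3 lines, or with mouse as a block between classes and tertiles. Adjusted p (Benjamini-Hochberg over all genes tested) under 0.05 was a call. Between classes and lines the 8 genes were part of the fit, and their differences are given without a call. DESeq2 1.42.0 was an alternative. Correlations used log2 CPM with a prior count of 2. Python 3.11.15 with scipy 1.17.1 gave exact intervals, at 95%. The floor for a count of 0 was 3 counts.

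The genes, lists and thresholds were chosen with earlier results of these data known. The genes of the report are all 8 of the set, listed genes with a call (at most the 4 largest per direction and comparison), *Timp3*, *Reck*, *Plau*, *Plaur*, *Fn1* and *Spp1* between lines, and the 3 genes most like each. The steps were tested on simulated data. Replicates differed beyond sampling noise (chi-square per degree of freedom 2.66 to 12.5). A parental replicate 2 was not analysed here.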

Additional observations from a re-analysis of the deposited data

Results flagged for a closer look

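*Adam8* differed between the myeloid classes in its line effect (interaction of class and line, E0771-Res2 against parental, 0.87 ± 0.15 log2 units, edgeR quasi-likelihood test, adjusted p = 0.015, beside 0.335% of 9863 genes past the threshold). It had 168 and 139 CPM in parental and 189, 314 and 232 CPM in E0771-Res2 C1qa-high cells, against 173 and 151 and then 125, 156 and 130 CPM in C1qa-low cells. The interaction no longer passed without parental mouse 1 (0.93) or 3 (0.90) or without E0771-Res2 mouse 3 (0.85), nor with a *C1qa* gate of 5 and 0 (0.78). Groups of 2 or 3 mice were not searched for outlying samples.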

How the results depend on the processing

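Counts of genes past the threshold moved with several settings. Without the filter on low counts they were 405, 565 and 627 in C1qa-high cells (E0771-Res1 and E0771-Res2 against parental, E0771-Res2 against E0771-Res1, with 81, 217 and 314 in the report's fit), 181, 841 and 791 in C1qa-low cells (4, 539 and 480) and 100 and 149 for the interactions (1 and 33). With a *C1qa* gate of 5 and 0 they were 138 for the first, 1, 301 and 268 in C1qa-low cells and 2 and 9 for the interactions. With the gate after thinning they were 36, 89 and 203 in C1qa-high cells, 12 for E0771-Res1 in C1qa-low cells and 11 and 16. DESeq2 gave 207 between the resistant lines in C1qa-high cells, 41 and 319 for the first and last C1qa-low comparison, 0 and 15 for the interactions, 375 for MHC class II (613) and 415 for hypoxia (730). Keeping the excluded genes gave 2 and 20 interactions, RLE scaling 0 and the doublet filter 4 for E0771-Res1. Without mouse as a block the tertiles gave 236 (MHC class II), 690 (lipid-associated, 1079 in the report) and 313 (hypoxia), and calls of *Furin*, *Adam8* and *Lrp1* (MHC class II, 0.51, −0.50 and −0.42), *Tgfbi* and *Fosb* (lipid-associated, −0.42 and −0.29) and *Fn1*, *Spp1* and *Jun* (hypoxia, 1.43, 0.88 and −0.29) were lost.

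Leaving out 1 mouse gave 6 to 288, 43 to 371 and 125 to 361 genes in C1qa-high cells, 0 to 33, 61 to 640 and 203 to 549 in C1qa-low cells, 4494 to 4983 between classes (5033), 0 to 29 and 4 to 59 interactions, and 406 to 676, 879 to 1088 and 480 to 755 for the MHC class II, lipid-associated and hypoxia tertiles. A lone parental mouse is then assumed to vary like the other groups. The cause of these shifts was not tested.

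Mice with the same replicate number did not deviate together (r −0.04 to 0.04 over 7 pairs), and 3 of 8 were closest to their own number. With the replicate number as a block, 51 genes passed for E0771-Res1 in C1qa-low cells, and *Spp1* passed there (0.75) and between the resistant lines (−0.38). *Fn1* passed for E0771-Res2 in these cells (−0.98 and −0.70 against E0771-Res1). In C1qa-high cells *Tgfbi* (−0.47) and *Itgb2* (−0.39) of E0771-Res2 against parental no longer passed.

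Of the tested genes, directions turned for values that had not passed the threshold. In the hypoxia tertiles *Mmp14* was 0.0021 in DESeq2, 0.013 without the filter, 0.0046 without likely doublets, 0.0026 without mouse as a block and −0.052 to 0.042 with a mouse left out, and *Timp2* 0.026 without likely doublets and −0.10 to 0.10. *Spp1* in C1qa-high cells was 0.67, 0.50 and −0.17 with the gate after thinning, −0.074 between the resistant lines with a gate of 5 and 0, and −0.71 to 0.43, −0.57 to 0.56 and −0.28 to 0.50 with a mouse left out. *Fn1* was −1.23 for E0771-Res2 in C1qa-high cells after thinning. In C1qa-low cells of E0771-Res1 it was 0.00061 in DESeq2, 0.00049 without likely doublets, 0.14 with a gate of 5 and 0, 0.052 after thinning and −0.16 to 0.16 with a mouse left out, *Plaur* was −0.13 to 0.10, and *Plau* between the resistant lines −0.32 to 0.17. Without the filter on low counts *Plau* (0.56) and *Fn1* (0.90) of E0771-Res1 and *Plaur* (−0.57) of E0771-Res2 passed in C1qa-high cells, and in C1qa-low cells *Spp1* (1.03, 0.67 and −0.36, in the order of the comparisons) and *Fn1* of E0771-Res2 (−0.63 against each of the others). *Fn1* between the resistant lines in C1qa-high cells passed with the gate after thinning (−1.60).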
